A study of Mus musculus with 12 samples.

Results

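The wild-type (WT) hippocampus was described from 3 total RNA libraries, WT replicates 1, 2 and 4, out of 12 samples in the series. The libraries were chosen by their labels alone, which name the tissue, the genotype and the kind of RNA. They came from male mice aged 4 months, littermates of APP/PS1 transgenic mice that carry APPswe and PSEN1dE9, and the WT mice carry no transgene per their label. RNA was taken from hippocampus in TRIzol and made into stranded total RNA libraries, sequenced on an Illumina HiSeq instrument. The mice are all of 1 sex and 1 age, and neither the time of day at collection nor a library batch is given in the sources used here. No comparison with another genotype was made, so the results are levels and the spread between these 3 libraries, without a test.

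The hippocampus is a folded sheet of cortex that serves memory and spatial navigation. Its granule cells in the dentate gyrus send axons to CA3 pyramidal cells, which in turn project to CA1, and most of its output is glutamatergic. Inhibitory interneurons, astrocytes, oligodendrocytes, microglia and vessels lie among these neurons, and the choroid plexus, the ependymal lining of the ventricle and the meninges touch its surface. A total RNA library from such tissue mixes the transcripts of all of them and holds nuclear noncoding RNA as well as messenger RNA. In bulk samples, fewer cells of a type and less RNA per cell cannot be told apart.

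The libraries held 123759886, 125651066 and 146904552 estimated counts for replicates 1, 2 and 4. Levels are given as CPM, the estimated count per 1000000 counts of library size after TMM scaling, whose factors lay between 0.986 and 1.01. No transcript lengths were used, so a rank in CPM orders genes by their share of the counts and not by molecules, and long transcripts take more counts for the same number of molecules. Of 24736 gene symbols, 18535 were above 0 in all 3 libraries and 4197 were listed at 0 in all 3. With 12 estimated counts over the group as the limit for a symbol at 0, such a symbol may stand at up to 0.0303 CPM, counting error only. Low values in the table cluster at 4 and 8, from which 1 sequenced fragment was taken as about 4 estimated counts.

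The abundance ranking was steep at the top and long in the tail. A mean of at least 1 CPM was reached by 14583 symbols, at least 10 CPM by 9877, at least 100 CPM by 2370 and at least 1000 CPM by 80. Of the 80, 73 were coding genes and 5 were noncoding by RefSeq. The 10 highest symbols took 5.96%, 5.61% and 5.57% of the counts in replicates 1, 2 and 4, the 100 highest took 17.6%, 17.3% and 17.2%, and the 1000 highest took 50.5%, 49.8% and 49.98%. The 3 libraries thus had nearly the same shape of ranking, and 974, 1012 and 1002 symbols were enough to make up 50% of the counts. Coding genes held 95.3%, 95.4% and 95.6% of the counts and noncoding genes 2.97%, 3.28% and 3.13%. The remaining 1.74%, 1.35% and 1.25% belonged to 96 symbols without a single RefSeq match, most of it to Rn45s, the precursor of ribosomal RNA. Another of these, 2900097C17Rik, had 1728, 1661 and 1624 CPM and its name is a synonym of more than 1 RefSeq gene. There was no row for a gene encoded by mitochondrial DNA.

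**Figure D1:**
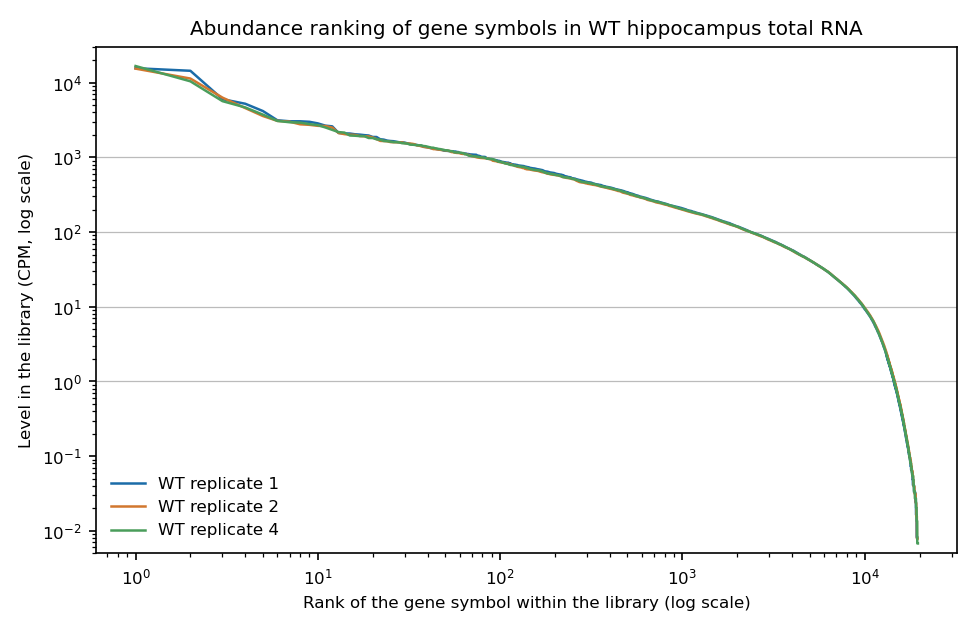
Level of each gene symbol in CPM (vertical axis, log scale) against its rank within the library (horizontal axis, log scale), 1 line for each WT replicate; grey lines mark 1, 10, 100 and 1000 CPM. The 3 lines lie on each other except at the first few ranks, where replicate 1 has Rn45s at 15606 CPM against 11347 and 10416 CPM in replicates 2 and 4.

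Coding genes at the top of the ranking encoded transporters, kinases, cytoskeletal proteins and synaptic proteins of neurons and astrocytes. Slc1a2, the astrocytic glutamate transporter GLT-1 (chromosome 2, 102658239 to 102790784, mm10), came first with 6004, 6301 and 5652 CPM in replicates 1, 2 and 4, a mean of 5986 ± 324 CPM (SD, n = 3). Camk2a, the alpha subunit of the kinase CaMKII that is needed for long-term potentiation, followed with 5218, 4564 and 4660 CPM. The highest Camk2a library lay below the lowest Slc1a2 library, so their order held in every library. Map1b, a microtubule-associated protein of axons and dendrites, had 4165, 3573 and 3729 CPM, all below the Camk2a values.

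Close behind were Map2, the dendritic microtubule protein, with a mean of 2937 ± 206 CPM and Map1a, another microtubule-associated protein, with 2909 ± 135 CPM (SD, n = 3 each). Kif5a, a kinesin motor heavy chain, had 2992, 2504 and 2513 CPM. Map2 and Map1a exchanged places between libraries, while Kif5a was below both in each library. Over the 25 highest coding genes, 7 of 24 neighbouring pairs kept the same order in every library. The ranges of 20 of the 24 pairs overlapped, and 18 of the 25 were among the 25 highest in each of the 3 libraries.

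Others of the 25 covered the same kinds of protein. Cytoskeletal and motor genes were Sptbn1 and Sptan1, the spectrins under the plasma membrane (2079 ± 86.3 and 1674 ± 43.3 CPM), Actb (2055 ± 112 CPM), Kif1a and Kif1b, kinesins that carry vesicles and organelles (1931 ± 73.0 and 1669 ± 72.9 CPM), and Dync1h1, the dynein heavy chain (1581 ± 46.1 CPM). Synaptic genes were Snap25, a SNARE protein of vesicle fusion (2049 ± 117 CPM), Cplx2, which binds the assembled SNARE complex (1851 ± 84.4 CPM), Shank1, a scaffold of the postsynaptic density (1594 ± 58.4 CPM), and Ddn, dendrin (1872 ± 55.8 CPM). Glul, the glutamine synthetase of astrocytes, had 1938 ± 29.4 CPM, Atp1b1, a sodium pump beta subunit, 1593 ± 53.7 CPM, Prkcb, a protein kinase C, 1569 ± 124 CPM, and App, the amyloid precursor protein gene, 1547 ± 28.2 CPM. Each of these means is over 3 libraries with its SD.

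Ncdn and Mbp had the widest relative spread of the 25. Ncdn, which encodes neurochondrin, had 1320, 1999 and 1814 CPM in replicates 1, 2 and 4, with replicate 1 lowest. Mbp, the myelin basic protein gene, had 2093, 1591 and 1418 CPM, with replicate 1 highest. Their coefficients of variation were 20.5% and 20.6%, against a median of 4.56% over the 25.

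**Figure D2:**
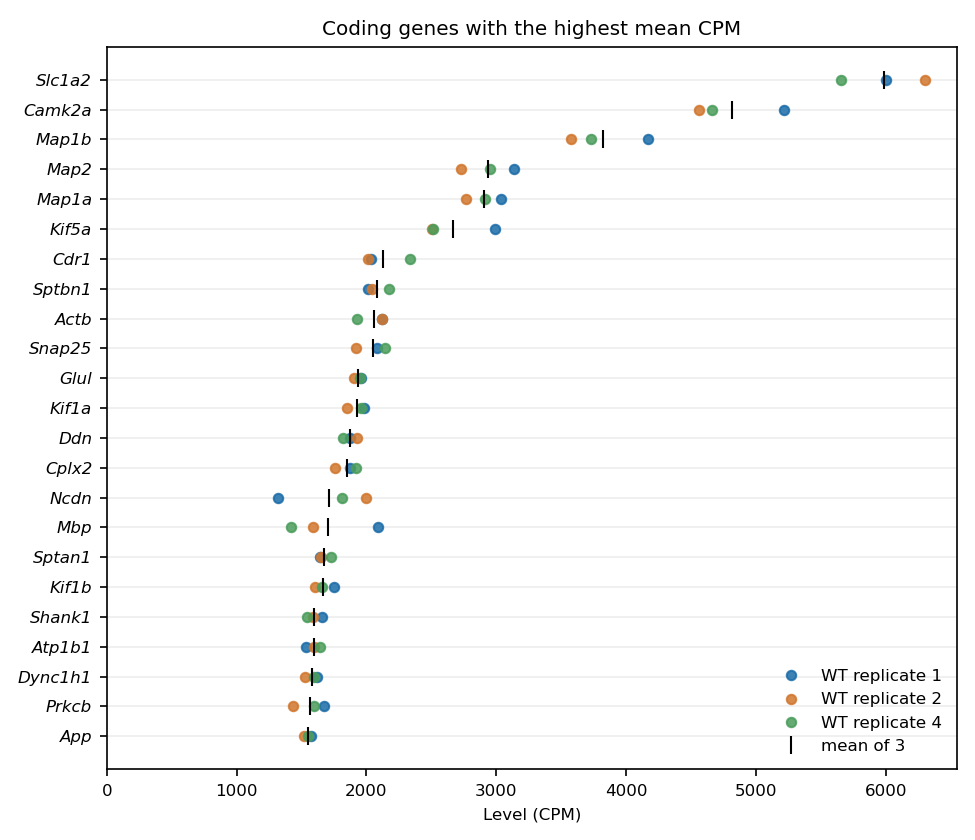
Level in CPM (horizontal axis) of 23 of the 25 coding genes with the highest mean, 1 point for each WT replicate and a black tick for the mean of 3. Points of most neighbouring genes overlap, while Ncdn has replicate 1 far to the left at 1320 CPM and Mbp has replicate 1 to the right at 2093 CPM.

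Cdr1 ranked among the 10 highest coding genes with 2036, 2010 and 2336 CPM (chromosome X, 61183246 to 61185558). The strand opposite to this gene gives rise to Cdr1as, a circular RNA of neurons known for its many miR-7 sites. The sources used here do not say whether counting used strand, so reads of the 2 strands cannot be told apart and these values may belong to either. The stretch from base 172 to base 72 upstream of the annotated Cdr1 start and the mature miR-7a-5p are shown because they share letters. The Cdr1 stretch is written 5′ to 3′ on the strand of Cdr1, so that the opposite strand carries the complement of the miR-7a seed. Capitals mark GGAAGAC, the seed of miR-7a-5p (bases 2 to 8), in both sequences, which are from RefSeq (GRCm38.p6, the build mm10).
Cdr1 upstream, chrX:61185630-61185730, minus strand: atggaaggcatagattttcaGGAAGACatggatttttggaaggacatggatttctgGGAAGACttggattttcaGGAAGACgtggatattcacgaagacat
miR-7a-5p: uGGAAGACuagugauuuuguugu
In the 250 bases upstream of Cdr1 the letters GGAAGAC occur 3 times, and only 2 of 32851 such RefSeq windows, this one included, hold them as often. They occur at least once in 2.18% of windows on the strand of the gene and in 4.31% on either strand. The match is a description of letters and not a measured site.

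Noncoding RNA was led by Malat1, a nuclear long noncoding RNA (chromosome 19, 5795690 to 5802672), which was the highest symbol by mean and in replicates 2 and 4 with 14413, 15411 and 16696 CPM. In replicate 1 Rn45s was higher at 15606 CPM. The mean of Malat1 was 15507 ± 1145 CPM (SD, n = 3), and its lowest library stood above the highest Slc1a2 library. Meg3, an imprinted long noncoding RNA expressed from the maternal allele, had 2601, 3077 and 2787 CPM. Snhg14, the long transcript of the Prader-Willi and Angelman region that runs through the Ube3a antisense, had 1100, 1179 and 1040 CPM. Snhg11 had 967, 1153 and 1099 CPM and overlapped with Snhg14 between libraries. Kcnq1ot1, the antisense RNA of the imprinted Kcnq1 domain, had 683 ± 35.8 CPM, Miat 400 ± 57.0 CPM, and Rmrp, the RNA of RNase MRP, 398 ± 21.0 CPM (SD, n = 3 each).

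The other noncoding genes of the 15 highest ended at 4933431E20Rik with 132 ± 2.89 CPM. Among them were Rian and Peg13, both imprinted, with 310 ± 18.2 and 301 ± 12.1 CPM, Tug1 with 165 ± 6.54 CPM, and the transcribed pseudogenes Gm1821 and Tmem181b-ps with 176 ± 8.41 and 138 ± 48.4 CPM. In all, 14 of the 15 were among the 15 highest noncoding symbols in each library, and 8 of 14 neighbouring pairs overlapped. Neat1, the scaffold of nuclear paraspeckles, had 117, 119 and 132 CPM. Bc1, a short RNA polymerase III transcript that is known to be abundant in neurons, was listed at 0.00820, 0.00787 and 0.00679 CPM, which is below the level of 1 fragment in each library.

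Some abundant noncoding genes are hosts of miRNAs, short RNAs that pair with messenger RNAs through their seed. Mir124a-1hg, the host of a miR-124 gene, had 186, 195 and 200 CPM. C130071C03Rik and Mir9-3hg contain the hairpins Mir9-2 and Mir9-3 on the same strand. C130071C03Rik had 78.6, 77.2 and 82.2 CPM and Mir9-3hg had 16.1, 17.6 and 15.3 CPM. Along chromosome 12 the span of Meg3 contains the hairpin Mir770, that of Rian 3 hairpins and that of Mirg 10, all on the strand of the host. Mirg had 16.8, 14.4 and 12.8 CPM. The mature sequences below show which seeds these host transcripts carry, with the seed in capitals (RefSeq, GRCm38.p6).
miR-9-5p, chr13:83738821-83738843, in C130071C03Rik and identical from Mir9-3: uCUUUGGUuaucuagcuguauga
miR-770-5p, chr12:109563710-109563731, in Meg3: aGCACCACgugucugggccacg
miR-370-3p, chr12:109618305-109618326, in Rian: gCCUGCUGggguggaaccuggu
These 3 seeds differ from each other, and the total RNA counts of a host say nothing of the level of its mature miRNA.

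Genes of 17 functional lists were then read together. The list of tubulin and neuronal cytoskeleton genes summed to 33944, 32008 and 33033 CPM in replicates 1, 2 and 4, the largest sum of the 17 lists, over 30 members. Synaptic vesicle and release genes summed to 19139, 18386 and 19707 CPM, led by Snap25, Cplx2 and Bsn, the active zone protein Bassoon (1433 ± 138 CPM). Postsynaptic density genes summed to 17343, 15765 and 16074 CPM, led by Camk2a, Shank1 and the AMPA receptor subunit Gria1 (1326 ± 37.2 CPM). The calmodulin and CaMKII list summed to 15265, 14155 and 14492 CPM, in which Ppp3ca, the catalytic subunit of calcineurin, had 1432 ± 78.5 CPM and Camk2b had 1233, 1236 and 1245 CPM. Some genes stand on more than 1 list, as Camk2a does, so sums of different lists are not added.

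The sums of metabolic lists differed little between libraries. Nuclear-encoded respiratory chain genes summed to 3262, 3296 and 3246 CPM, with Atp5b, an ATP synthase subunit, at 720 ± 18.6 CPM. Glycolysis genes summed to 8426, 7729 and 7983 CPM, with Gapdh at 1304, 1139 and 1453 CPM. Ion transport ATPases summed to 11635, 11517 and 11924 CPM. Cytosolic ribosomal protein genes summed to 3793, 4002 and 4024 CPM over 37 members, with Rpl4 at 284 ± 6.49 CPM. Translation factors and chaperones summed to 10615, 10451 and 11100 CPM, with Eef1a1, the elongation factor, at 1485 ± 10.7 CPM and Hspa8 at 1410 ± 162 CPM.

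Genes around amyloid and tau gave the baseline of a wild-type hippocampus at this age. App had 1575, 1519 and 1546 CPM, and its homologues Aplp1 and Aplp2 had 968, 882 and 851 CPM and 638, 594 and 604 CPM. The beta-secretase gene Bace1 had 152, 151 and 147 CPM, the alpha-secretase gene Adam10 had 133, 119 and 127 CPM, and the gamma-secretase gene Psen2 had 10.6, 10.7 and 10.2 CPM. Apoe, a lipid carrier of astrocytes and microglia, had 1053, 1065 and 970 CPM, and Mapt, which encodes tau, had 618, 545 and 536 CPM. Trem2, a microglial receptor, had 6.16, 6.29 and 4.5 CPM. None of the 20 genes of this list reached 1.5 times between its lowest and highest library, against 9.9% of all symbols. That share was 4.48% at 10 to 100 CPM and 2.40% at 100 to 1000 CPM, so none of 20 is near the share at such levels.

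Activity-dependent genes were measurable in every library. Egr1, a transcription factor induced by synaptic activity, had 219, 258 and 251.4 CPM, Arc, which acts at active synapses, 200, 237 and 210 CPM, and Nr4a3 159, 147 and 144 CPM. Fosb stood apart in replicate 4 with 28.1 CPM against 13.6 and 13.5 CPM. Clock genes follow the time of day, and 14 of 17 were highest in replicate 4, where 33.7% of all symbols with a mean of at least 1 CPM were highest. Dbp, an output gene of the clock, had 36.4, 45.8 and 57.1 CPM and Per3 43.8, 53.8 and 59.1 CPM, with replicate 1 lowest and replicate 4 highest in both. Members of other lists were also highest in replicate 4, 12 of 19 for neocortex and 8 of 12 for thalamus, and Rorb stands on both the clock and the neocortex list with 61.3, 62.8 and 77.3 CPM. The part of collection time or of dissection in this was not tested.

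Marker lists for 26 cell types, tissues and controls were compared next, and the neuronal and astrocytic lists had the largest sums. Astrocyte markers summed to 16343, 16958 and 16146 CPM, of which Slc1a2 took 36.3%. Sparcl1, a secreted synaptogenic protein, had 1223, 1391 and 1445 CPM, and Gfap, the filament of reactive and hippocampal astrocytes, had 413, 339 and 281 CPM with replicate 1 highest. Glutamatergic markers summed to 10967, 9925 and 10373 CPM. Slc17a7, the vesicular glutamate transporter of hippocampal and cortical neurons, had 912, 844 and 873 CPM, while Slc17a6, typical of thalamus and brainstem, had 23.5, 28.1 and 34.3 CPM. Pan-neuronal genes summed to 10193, 9535 and 10228 CPM.

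Markers of each hippocampal subfield were present. For dentate granule cells, the transcription factor Prox1 had 144, 129 and 139 CPM, Dsp, desmoplakin, 81.9, 87.4 and 86.0 CPM, and C1ql2, a synaptic organiser of mossy fibres, 28.8, 26.0 and 18.9 CPM. For CA1, Mpped1 had 223, 199 and 216 CPM, Wfs1 had 137, 172 and 142 CPM, and Fibcd1 had 125, 105 and 96.5 CPM. For CA2, Rgs14, a regulator of G protein signalling, had 57.0, 46.1 and 50.9 CPM and Pcp4, a calmodulin-binding peptide, 44.8, 48.6 and 45.8 CPM. Means of the other CA2 members ran from 0.608 CPM in Scgn to 78.4 CPM in Necab2. For CA3, the kainate receptor subunit Grik4 had 63.8, 62.4 and 57.0 CPM, and the list as a whole had 735, 703 and 652 CPM. Calb2, which marks mossy cells among others, had 47.3, 42.8 and 33.6 CPM. Calb2 also stands on the thalamic list and on that of adult neurogenesis. Of the other mossy cell members, Ajap1 and Rgs12 had means of 44.7 and 39.0 CPM. Calcr, Glipr1, Nmb, Csf2rb2, Drd2 and Tm4sf1 had means between 0.300 and 5.79 CPM.

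Interneuron markers spread slightly more than all symbols together. Gad1 and Gad2, the enzymes that make GABA, had 262, 307 and 254 CPM and 211, 284 and 214 CPM, each highest in replicate 2. The subclass markers Sst, Npy, Pvalb and Vip had 122, 104 and 112 CPM, 25.5, 24.1 and 29.0 CPM, 24.5, 28.1 and 28.3 CPM, and 14.5, 17.6 and 17.2 CPM. The median ratio of highest to lowest library was 1.19 over the 21 members, against 1.14 over all symbols with a mean of at least 1 CPM, and the sum was 2552, 2598 and 2423 CPM.

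Microglial markers summed to 419, 411 and 362 CPM. Csf1r, the receptor on which these cells depend, had 71.8, 71.8 and 68.9 CPM, Cx3cr1, the fractalkine receptor, 33.4, 36.3 and 33.9 CPM, and the complement gene C1qb 30.8, 31.2 and 20.8 CPM. In all, 11 of the 18 members were lowest in replicate 4, where 32.6% of all symbols were lowest. Of 16 border macrophage and leukocyte markers, only 5 had a mean of at least 1 CPM. Of these 5, 3 reached 1.5 times between the lowest and the highest library (60.0%). The share was 9.9% of all symbols and 22.3% of those at 1 to 10 CPM, where the 5 lie. Mrc1, a mannose receptor of border macrophages, had 4.75, 7.54 and 7.94 CPM, and the T cell gene Cd3e and the monocyte gene Ccr2 had means of 0.0113 and 0.144 CPM, while Ly6g was listed at 0.

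Control lists were read against the labels. The Y-linked genes Ddx3y, Kdm5d, Uty and Eif2s3y had means of 88.0, 83.3, 66.9 and 63.8 CPM, and Xist, which is expressed from the inactive X of females, had 1.81, 2.87 and 2.13 CPM. Usp9y, Zfy1 and Sry were listed at 0. Of 23 genes typical of other organs, 5 were listed at 0 (Ins1, Gh, Cga, Umod and Fabp1) and 3 had a mean of at least 1 CPM, with Ttn, the sarcomere protein titin, at 70.9, 43.8 and 42.2 CPM. Markers of neighbouring brain regions were not absent and differed between libraries. In the striatal list 8 of 14 members were highest in replicate 2, where 30.6% of all symbols were highest. Of the 14, 4 reached 1.5 times between the lowest and the highest library (28.6%, against 9.9% of all symbols). Of the thalamic list 3 of 12 did, and of the neocortical list 1 of 19, Cplx3. The striatal genes Ppp1r1b and Drd2 had 47.6, 51.9 and 46.8 CPM and 3.71, 5.33 and 1.80 CPM, and the thalamic gene Tcf7l2 24.6, 16.8 and 25.6 CPM. Choroid plexus was represented by Ttr, the thyroxine carrier transthyretin, with 1258, 1549 and 1464 CPM.

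The spread between libraries was small for most genes. Over the 14583 symbols with a mean of at least 1 CPM, the highest library was a median of 1.14 times the lowest. The median absolute difference in log2(CPM + 0.5) was 0.11 between replicates 1 and 2, 0.12 between 1 and 4, and 0.10 between 2 and 4. The biological coefficient of variation by edgeR was 15.9%. With about 4 estimated counts for 1 fragment, part of the counting error of low symbols enters this coefficient. A symbol was called variable where its highest library was at least 1.5 times its lowest, which is a description with no test. By this rule 1443 of 14583 symbols were called, or 9.9%, the background against which each list is read. The share was 22.3% at 1 to 10 CPM, 4.48% at 10 to 100 CPM, 2.40% at 100 to 1000 CPM and 3.75% (3 of 80) above. It was 9.30% for coding genes, 18.99% for long noncoding RNAs and 27.2% for transcribed pseudogenes.

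No library held most of the extremes. The highest value lay in replicate 1 for 35.7% of the 14583 symbols, in replicate 2 for 30.6% and in replicate 4 for 33.7%, and the lowest lay there for 35.3%, 32.1% and 32.6%. Among the called symbols, 913 (63.3%) had 1 library apart while the other libraries lay within 1.2 times of each other. The library apart was high for 386 and low for 527, and low in replicate 1 for 249 of these.

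Genes of the meninges and perivascular fibroblasts had the largest ratio between libraries of the 26 marker lists, both by sum and by median. Of 16 members, 12 were called variable (75.0%, against 9.9% of all symbols) and 15 were lowest in replicate 1, where 35.3% of all symbols were lowest. The list summed to 620, 1240 and 1174 CPM in replicates 1, 2 and 4, and the median ratio of highest to lowest was 2.26, against 1.14 over all symbols. Ptgds, the prostaglandin D synthase of the leptomeninges (chromosome 2, 25466709 to 25470110), had 295, 720 and 683 CPM and took 56.0% of the sum. Igf2, a growth factor of meninges and choroid plexus, had 76.8, 169 and 171 CPM. In both genes replicate 1 stood alone below the other libraries.

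The same order was seen in collagens and transporters of these cells. Col1a1 and Col1a2, the chains of type I collagen, had 7.86, 15.6 and 11.2 CPM and 10.7, 24.3 and 18.4 CPM, and Col3a1 had 2.44, 8.03 and 5.03 CPM. Slc6a13, a GABA and taurine transporter of the meninges, had 3.10, 12.2 and 8.81 CPM, and Fmod, a collagen-binding proteoglycan, 7.47, 28.7 and 26.4 CPM. Aldh1a2, which makes retinoic acid in the meninges, had 4.51, 12.8 and 9.54 CPM. The members that were not called were Dcn, Lum, Pdgfra and Igfbp2. Pdgfra also stands on the list of oligodendrocyte precursors and Dcn on that of CA1 cells. Without WT replicate 1 only 1 of the 16 was called and the sums differed by 1.06 times.

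Vessel lists had replicate 1 lowest as well. Of 12 pericyte and smooth muscle genes with a mean of at least 1 CPM, 9 were lowest in replicate 1, where 35.3% of all symbols were lowest. Of the 12, 5 were called (41.7%, against 9.9% of all symbols). Tagln, Des and Anpep among these lie at 1 to 10 CPM, where 22.3% of all symbols were called. The contractile genes Acta2, Tagln and Myh11 had 17.5, 31.3 and 23.1 CPM, 5.98, 11.3 and 7.94 CPM, and 18.6, 31.6 and 28.7 CPM. Without WT replicate 1 none of the 12 was called, and without replicate 2 there were 3. Rgs5, a pericyte regulator of G protein signalling, had another order with 137, 107 and 155 CPM. Among 16 endothelial genes 12 were lowest in replicate 1 and 0 were highest there, against 35.3% and 35.7% of all symbols. Only Vwf, the von Willebrand factor of larger vessels, was called (6.25% of the list), with 20.8, 40.2 and 34.0 CPM. Flt1, a VEGF receptor, had 85.1, 88.7 and 95.1 CPM. Cd163 and Mrc1 of border macrophages were also lowest in replicate 1. The part of dissection in these values was not tested.

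**Figure D3:**
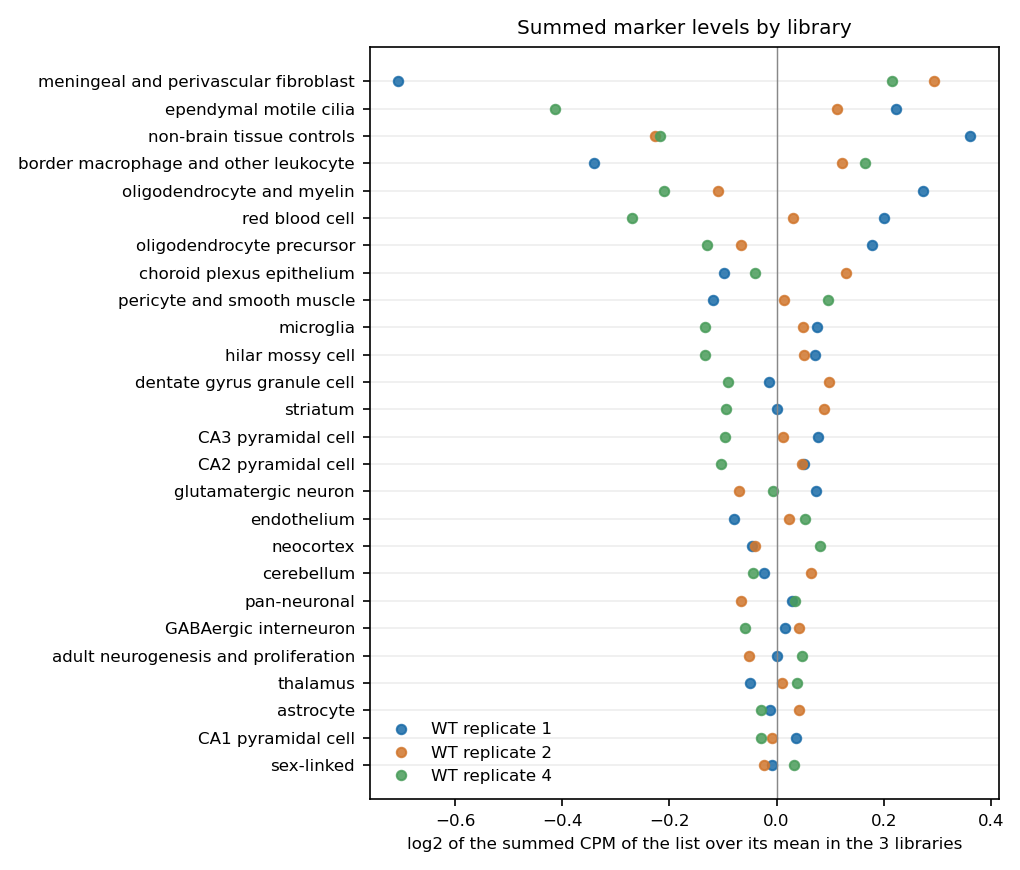
Summed CPM of each of the 26 marker lists in each WT replicate, as log2 over the mean of the 3 replicates (horizontal axis), with lists ordered by the ratio of their highest to lowest sum. The fibroblast list has the widest spread, with replicate 1 at the left (620 CPM against 1240 and 1174 CPM), and the astrocyte and CA1 lists are among the narrowest.

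Myelin genes showed the opposite order. Of 19 oligodendrocyte and myelin members, 18 were highest in replicate 1, where 35.7% of all symbols were highest, and the list summed to 5106, 3919 and 3655 CPM. Mag, an adhesion protein of the inner myelin layer, had 131, 92.7 and 89.97 CPM. Sox10, the transcription factor of the lineage, had 47.2, 36.5 and 35.4 CPM. Most members lay under 1.5 times, so 5 of 19 were called (26.3%, against 9.9%), among them Opalin, Ugt8a, Fa2h and Apod. Ugt8a and Fa2h, enzymes that make myelin galactolipids, had 65.4, 44.6 and 42.5 CPM and 46.2, 31.9 and 29.1 CPM.

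Apod, a lipid-binding lipocalin of oligodendrocytes and other cells, was the exception with 51.4, 64.6 and 130 CPM and replicate 4 highest. Without WT replicate 1 only Apod was called among the 19, and without replicate 4 none was. Oligodendrocyte precursor genes leaned the same way in part, with 8 of 12 highest in replicate 1, where 35.7% of all symbols were highest. Olig1 had 56.4, 50.4 and 44.0 CPM. Bcas1, which marks oligodendrocytes that are beginning to myelinate, had 263, 83.4 and 78.5 CPM, far wider than any other member of its list, and its span overlaps the antisense symbol Bcas1os2.

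Ependymal genes of motile cilia were low in replicate 4. Of 13 members with a mean of at least 1 CPM, 12 were lowest in replicate 4, where 32.6% of all symbols were lowest, and 11 were called (84.6%). The list summed to 106, 98.4 and 68.3 CPM. Foxj1, the master regulator of motile cilia, had 15.3, 11.98 and 8.25 CPM, Hydin, a protein of the ciliary central pair, 15.6, 14.5 and 9.43 CPM, and the dynein Dnah11 12.1, 9.66 and 7.55 CPM. These levels lie where a larger share of all symbols is called, 22.3% at 1 to 10 CPM and 4.48% at 10 to 100 CPM. Without WT replicate 4 none of the members was called, while 7 were without replicate 1 and 9 without replicate 2.

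Choroid plexus genes, which belong to the tissue beside the ependyma, had yet another order. Of 20 members, 17 were highest in replicate 2, where 30.6% of all symbols were highest. In replicate 4, 13 of the 20 were lowest, against 32.6% of all symbols. The list summed to 2441, 2858 and 2540 CPM, of which Ttr took 54.5%. Enpp2, the lysophospholipase autotaxin, had 764, 869 and 691 CPM, and Kcnj13, a potassium channel of this epithelium, 23.0, 30.9 and 26.9 CPM. Of the 20, 4 were called, against 9.9% of all symbols. Among these were Sostdc1 with 40.8, 31.9 and 19.1 CPM and Msx1 with 5.88, 6.65 and 3.74 CPM. Calml4, Lmx1a and Msx1 lie at 1 to 10 CPM, where 22.3% of all symbols were called. Without replicate 4 only 1 member was called and without replicate 2 there were 2.

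**Figure D4:**
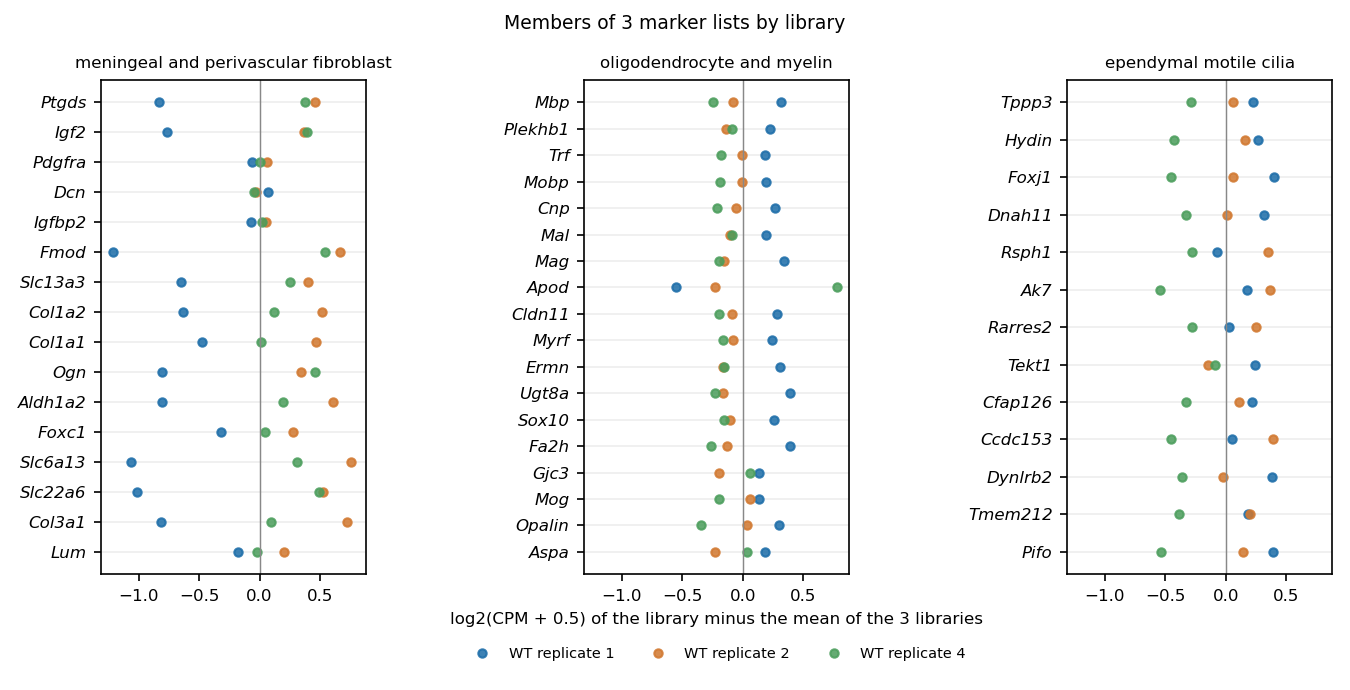
log2(CPM + 0.5) of each WT replicate minus the mean of the 3 replicates (horizontal axis) for the members of 3 marker lists with a mean of at least 1 CPM, ordered by mean level. In the fibroblast list replicate 1 lies left of the others for 15 of 16 genes, in the myelin list it lies right for 17 of the 18 drawn, and in the ependymal list replicate 4 lies left for 12 of 13.

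Synaptic lists differed by small ratios between libraries, but most members of each were highest in 1 library. The ratios of several neuron types were wider. In the synaptic vesicle list 18 of 26 members were highest in replicate 4, where 33.7% of all symbols were highest. In that list 20 were lowest in replicate 2, where 32.1% of all symbols were lowest, and the median ratio of highest to lowest was 1.11. In the postsynaptic density list 17 of 20 were highest in replicate 1, where 35.7% of all symbols were highest, with a median ratio of 1.12. Both medians were below the 1.14 of all symbols, whereas those of glutamatergic neurons, CA1, CA3, CA2 and mossy cells were 1.18, 1.19, 1.21, 1.24 and 1.41. The ratio also falls with level. Its median over all symbols was 1.27 at 1 to 10 CPM, 1.12 at 10 to 100 CPM and 1.09 at 100 to 1000 CPM. Nearly all synaptic members lie at 100 CPM or more, where 1.11 and 1.12 are not low. The CA2 and mossy cell members lie under 100 CPM, and the part of level in the contrast was not tested. No member was called in the lists of astrocytes, CA1 and CA3 cells, glutamatergic neurons, interneurons, cytoskeleton, CaMKII, respiratory chain, translation factors, amyloid genes or housekeeping genes. In the other neuronal lists 2 members each were called, of 15 pan-neuronal genes (13.3%), 12 granule cell genes (16.7%), 7 CA2 genes and 7 mossy cell genes (28.6% each), against 9.9% of all symbols. They were Syt1 and Eno2, C1ql2 and Rfx3, Cacng5 and Ntf3, and Nmb and Drd2. The synaptic vesicle list had 1 called member of 26 and the postsynaptic density list 1 of 20. Syt1, the calcium sensor of vesicle release, had 800, 1288 and 1323 CPM, Eno2, the neuronal enolase, had 623, 294 and 280 CPM, and Homer2, a postsynaptic scaffold, had 175, 62.6 and 58.8 CPM, each with replicate 1 alone.

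Single abundant genes also had 1 library apart. The 20 symbols with the largest SD of log2(CPM + 0.5) among those with a mean of at least 100 CPM were listed after the values were seen. In 14 of the 20, 1 library stood apart from the other 2 (70.0%, near the 63.3% of all called symbols), high in 7 and low in 7. Rac1, a small GTPase of the actin cytoskeleton (chromosome 5, 143505481 to 143528031), had 252, 55.6 and 50.1 CPM. Kctd12, an auxiliary subunit of GABA-B receptors, had 182, 181 and 39.5 CPM. Shisa7, a protein that binds GABA-A and AMPA receptors, had 95.7, 329 and 101 CPM.

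Other members of the 20 stood apart in each of the libraries. Slc24a2, a sodium, calcium and potassium exchanger, had 429, 1175 and 1262 CPM, and the transcription factor Nfix 228, 541 and 594 CPM. Slc8a1, a sodium and calcium exchanger, had 468, 1015 and 457 CPM, Arf3, a GTPase of the Golgi, 463, 968 and 440 CPM, and Rfx3, a transcription factor on the granule cell list, 90.9, 214 and 95.8 CPM. Slc38a1, a glutamine transporter, had 237, 95.7 and 231 CPM. The libraries apart were replicate 1 in Rac1, Slc24a2 and Nfix, replicate 2 in Shisa7, Slc8a1, Arf3, Rfx3 and Slc38a1, and replicate 4 in Kctd12. Of the 20, 3 overlap another symbol with at least 1 CPM and 2 belong to sets of near-identical copies. Over all 2370 symbols at this level 19.7% overlap another symbol.

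The most variable symbols of all included copies and pseudogenes. Of the 30 symbols with the largest SD at a mean of at least 1 CPM, 13 belong to sets of near-identical or nested genes, 9 are transcribed pseudogenes and 7 overlap another symbol with at least 1 CPM. Transcribed pseudogenes were 0.706% of the 14583 symbols, and 22.4% of the 14583 overlap another symbol at this level, near the 23.3% of the 30. The sets of copies were written down after the values were seen, so their count describes the 30 and has no share over all symbols beside it. At least 1 library was at 0 for 17 of the 30, of only 21 such symbols among the 14583. A mean under 10 CPM was found for 20 of the 30. Reads of near-identical copies may be split between them differently in each library, and how the counting treated such reads is not given in the sources used here.

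The haemoglobin genes led this list, and their sums were far steadier than the single symbols. Hba-a1, an alpha-globin gene (chromosome 11, 32283672 to 32284486), had 181, 0.00787 and 121 CPM in replicates 1, 2 and 4. Hba-a2, its copy at 32296492 to 32297310, had 90.5, 162 and 37.7 CPM. Replicate 2 was thus lowest for the first and highest for the second. Their sum was 271, 162 and 158 CPM, so the highest library was 1.71 times the lowest. Among the beta-globin genes Hbb-b1 had 117, 0.0629 and 102 CPM, and Hbb-bs (chromosome 7, 103826523 to 103827928) had 53.2, 125 and 0 CPM. Hbb-b2 and Hbb-bt had 16.4, 11.7 and 8.29 CPM and 11.7, 9.62 and 5.75 CPM. The 4 beta-globin symbols summed to 198, 147 and 116 CPM, and both sums were highest in replicate 1 and still spread by more than 1.5 times. Alas2, the erythroid enzyme of haem synthesis, was also highest in replicate 1 with 11.0, 9.80 and 8.67 CPM.

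The 110 bases upstream of the globin starts are shown because they let the copies be compared directly. Capitals mark CCAAT and ATATAA, the letters of the CCAAT box and of the TATA box in these promoters, on the strand of the gene. Sequences are from RefSeq (GRCm38.p6). Hbb-b1 and Hbb-b2 are named only.
Hba-a1, chr11:32283562-32283671, plus strand: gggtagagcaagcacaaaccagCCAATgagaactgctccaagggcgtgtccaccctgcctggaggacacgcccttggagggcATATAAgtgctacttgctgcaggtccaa
Hba-a2, chr11:32296382-32296491, plus strand: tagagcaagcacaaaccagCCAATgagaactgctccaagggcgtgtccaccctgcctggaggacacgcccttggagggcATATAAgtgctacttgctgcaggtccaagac
Hbb-bs, chr7:103827929-103828038, minus strand: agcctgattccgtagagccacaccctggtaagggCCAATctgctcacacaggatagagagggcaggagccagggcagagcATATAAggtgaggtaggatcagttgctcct
Hbb-bt, chr7:103813924-103814033, minus strand: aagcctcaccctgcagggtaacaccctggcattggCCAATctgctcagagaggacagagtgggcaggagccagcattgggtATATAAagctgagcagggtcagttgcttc
The windows of Hba-a1 and Hba-a2, from 250 bases before to 50 bases after the start, are identical over 297 bases once they are shifted by 3 bases. Each of the 4 stretches holds both motifs 1 time. Over all 32851 RefSeq windows, 10.7% hold CCAAT in these 110 bases on the strand of the gene and 20.2% on either strand, and 2.66% and 4.09% hold ATATAA. The 2 motifs do not overlap here, and a match is a description and not evidence of use.

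**Figure D5:**
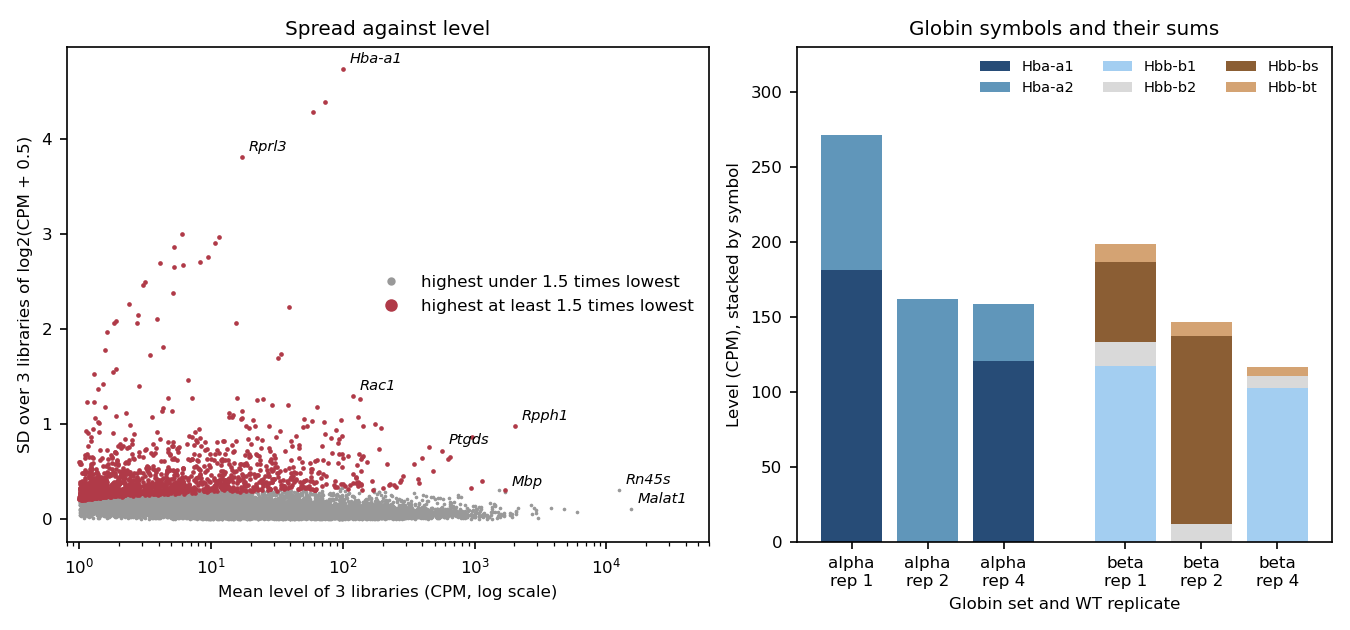
Left, SD over the 3 WT replicates of log2(CPM + 0.5) against mean CPM (log scale) for the 14583 symbols with a mean of at least 1 CPM, red where the highest library is at least 1.5 times the lowest. Right, CPM of the alpha-globin and beta-globin symbols stacked for each replicate: the symbols exchange places while the sums are 271, 162 and 158 CPM and 198, 147 and 116 CPM.

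RNase P RNA gave the widest difference among the most abundant symbols. Rpph1, the RNA of RNase P that trims the leader of transfer RNAs (chromosome 14, 50807447 to 50807771), had 2657, 2643 and 815 CPM, with replicate 4 alone low. Rprl3, a copy on chromosome 8, had 0.0574, 0.0157 and 51.8 CPM, and Rprl1 and Rprl2 were listed at 0. The sum over the 4 was 2657, 2643 and 866 CPM, still 3.07 times between highest and lowest, so the counts at Rprl3 in replicate 4 do not make up the difference. Rmrp, the RNA of the related RNase MRP, had 377, 419 and 400 CPM with no library apart. Replicate 4 was also the library with the lowest share of Rn45s, at 1.04% of the counts against 1.54% and 1.15%.

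Sums over copies were steady in some other sets and not in all. Moap1, which encodes a regulator of apoptosis, had 9.03, 19.1 and 0.0272 CPM, and the overlapping readthrough symbol Gm20604 had 18.7, 8.86 and 29.4 CPM. Their sum was 27.7, 28.0 and 29.5 CPM. Srp54b, a gene for the signal recognition particle subunit SRP54, had 40.5, 2.67 and 3.25 CPM, while the sum with Srp54a and Srp54c was 123, 89.0 and 120 CPM. The sum of Ly6c1 and Ly6c2 was 24.6, 22.2 and 22.5 CPM although Ly6c2 had 3.57, 0.0944 and 0.210 CPM.

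In the remaining sets the sum still differed, apart from the histone H3 cluster, whose sum was 4.81, 3.91 and 4.00 CPM. Tmem254b had 18.0, 0 and 0 CPM, and with Tmem254a and Tmem254c the sum was 20.02, 0 and 0 CPM. Fam177a and its copy 1700047I17Rik2 had 12.2, 0 and 0 CPM and 9.15, 0 and 0 CPM. Gm15772, a transcribed pseudogene for which RefSeq gives Rpl26 as a synonym, had 57.8, 3.44 and 56.6 CPM, while Rpl26, which encodes a ribosomal protein, had 0.0738, 0.0472 and 0.0950 CPM. Their sum was 57.9, 3.48 and 56.7 CPM, so replicate 2 stayed low. The sums of the Dynlt1 copies, the Tmem181 copies and Zfp965 to Zfp967 spread by 2.12, 1.77 and 2.03 times.

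Of the 30, 17 belong to no set of copies, and 9 of these are not transcribed pseudogenes. Btg3, an antiproliferative gene, had 0.0164, 15.5 and 0.00679 CPM, so replicates 1 and 4 stood below the level of 1 fragment. Pttg1, securin, had 0.148, 0.260 and 7.81 CPM with replicate 4 alone high. Pln, phospholamban of the calcium pump, had 0.271, 6.84 and 5.82 CPM and overlaps Cep85l. Col6a4, a collagen VI chain, had 0.197, 5.18 and 4.91 CPM, and both were low in replicate 1. Baiap2l1, which binds membranes and actin, had 33.5, 62.8 and 5.66 CPM and overlaps Bri3.

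Mir8114 showed the limits of a miRNA symbol in total RNA. It had 40.3, 50.03 and 5.46 CPM and its hairpin at chr1:153899926-153900036 lies at the start of Glul, which had 1962, 1905 and 1947 CPM. Reads of Glul and of the hairpin cannot be told apart in this table. The mature sequence is given to show what the symbol names, with the seed in capitals (RefSeq, GRCm38.p6).
miR-8114, chr1:153899989-153900009: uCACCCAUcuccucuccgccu

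At the other end stood coding genes whose libraries hardly differed. The 10 coding genes with the smallest SD at a mean of at least 10 CPM were Zfp846, Psap, Nfe2l1, Gphn, Cyp2u1, Xrn1, Zmym1, Impdh2, Fbxo30 and Pcmt1. Psap, the precursor of the saposins that help lysosomes break down sphingolipids, had 1087, 1086 and 1085 CPM. Gphn, the gephyrin scaffold of inhibitory synapses, had 98.3, 98.1 and 98.3 CPM, and Nfe2l1, a transcription factor of proteasome genes, 354, 353 and 354 CPM. Their coefficients of variation ran from 0.0970% to 0.229%. They were chosen for their small spread, so these values describe the choice. Among 20 housekeeping genes the ratio of highest to lowest library was lowest in Eef1a1 (1.01) and was 1.02 in Sdha, 1.10 in Actb and 1.28 in Gapdh. None of the 20 reached 1.5 times, against 4.48% of all symbols at 10 to 100 CPM and 2.40% at 100 to 1000 CPM.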

How the data were processed

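The total RNA table, as deposited, holds whole-number estimated counts (expected counts) per gene symbol. Per the submitters' processing notes the build was mm10 and the tools were HISAT2, StringTie and DESeq, with no version. How reads were counted and over which annotation, strand and filters is not given in the sources used here. The columns of WT replicates 1, 2 and 4 were used, 3 of the 6 in the table. Whole numbers needed no rounding. Library sizes were scaled by TMM (edgeR 4.0.16, R 4.3.3) and CPM computed, with total counts and DESeq2 1.42.0 size factors as alternatives. With 1 group there is no test. Spread is the SD over 3 libraries of log2(CPM + 0.5) at a mean of at least 1 CPM. The procedure was tested on simulated data with planted changes and 1 common spread, which checks the code and not these results. Of 24736 symbols, 24640 matched RefSeq (GRCm38.p6), 564 of them by synonym, for biotype and position. It gives genomic spans only, so the planned ranking per kilobase was not made.

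Some genes are not reported here. Otherwise named were the 25 coding and 15 noncoding genes highest in mean CPM, the leading, defining and most variable members of 43 lists, the 30 symbols with the largest SD and the 10 coding genes with the smallest at 10 CPM or more. Members, lists and rules were chosen with earlier results of these data known, and 13 copy sets and the 20 variable symbols at 100 CPM or more after the values were seen. The spread between libraries, not counting error, limits precision for abundant genes. The 3 libraries are taken as 3 littermates.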

Additional observations from a re-analysis of the deposited data

How the results depend on the processing

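Of 138 values computed under other settings for 24 results, 115 stayed within 1.5 times (counts) or 1 SD (levels) of the value reported, and 23 did not. The counts of symbols by level and edgeR's coefficient of variation stayed under every setting run for them, including total-count and DESeq2 scaling. So did the share of the 100 highest symbols and the summed CPM of 6 marker lists. For that share and those sums, leaving out 1 of 3 libraries shifts the mean by less than 1 SD whatever the values, apart from rescaling. Leaving libraries out thus could not show that they are stable. The fibroblast sum was 1011 CPM in all 3 libraries and 1216 CPM without WT replicate 1. The count of variable symbols, 1443, was 394 at a mean of at least 10 CPM, 6277 with no filter on low values and 480 where the highest library had to be 2 times the lowest. With 1 library left out it lay between 714 and 811, as fewer libraries are compared. Of the 30 most variable symbols, 10 remained at a mean of at least 10 CPM, 18 where copies were summed (an alternative chosen after seeing the data), and 19 to 21 with 1 library left out. The 10 were fixed in advance, because 20 of the 30 have a mean under 10 CPM. Summing takes the 13 that belong to copy sets out of the ranking as single symbols, so most of that loss was fixed in advance too. Neither number shows whether the 30 are stable. Members called at 2 times were 1 for myelin, 3 for ependyma, 1 for choroid plexus and 0 for pericytes. With 1 library left out, members called were 1 to 12 of 16 for fibroblasts, 0 to 5 for myelin, 0 to 9 for ependyma, 1 to 3 for choroid plexus and 0 to 5 for pericytes. The median of log2 CPM placed the highest library as the sum did in 22 of 43 lists, and the cause was not tested. The ranking per kilobase was not run. No paired analysis was possible because only 1 group was used.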
